A study of Rattus norvegicus with 10 samples.

Results

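Gfap, Vim, Nes and Synm encode intermediate filament proteins of glia and their progenitors. They were taken from the deposited table by gene symbol, and each symbol belonged to a single gene ID. They are 4 of the 23487 genes counted, namely Gfap (ENSRNOG00000002919), Vim (ENSRNOG00000018087), Nes (ENSRNOG00000018681) and Synm (ENSRNOG00000014030). All 4 passed the filter on low counts in each of the 5 comparisons below. RNA came from primary Sprague-Dawley rat cortical cells of pups aged P1 to P3, in 10 libraries with 2 for each of 5 groups. Cultured oligodendrocytes (OLs) were collected 5 days after they received a mimic of miR-145, mimics of both miR-145 and miR-219 (miR-145+miR-219) or a scrambled mimic (miR-ctl). Oligodendrocyte progenitor cells (OPCs) were collected 24 h after they received anti-miR-145, which blocks miR-145, or a scrambled inhibitor (anti-miR-ctl). The study's methods give 30 nM for the miR-145 mimic, the inhibitor and both scrambled controls. They do not say whether the combined group received 30 nM of each mimic or in total. The OL medium held triiodothyronine, ciliary neurotrophic factor (CNTF) and N-acetyl cysteine, whereas the OPC medium held fibroblast and platelet-derived growth factors, and all cells had been shaken off mixed glial cultures, which also contain astrocytes and microglia. Before plating, the suspension was left to settle on dishes so that other, more adherent cells were removed. A treatment tag of the OL miR-145 libraries also names miR-219, while their titles name miR-145 alone, and they are described here as miR-145. The study describes the replicates of all its experiments as biological and gives N = 2 per condition for this RNA sequencing. It defines N in primary culture as cells of a single mouse, while these libraries are from rats. For these rat libraries the labels do not name the animals or cultures. The p-values therefore measure the spread between these libraries, and whether that is a spread between animals is not known.

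Intermediate filaments are rope-like polymers of the cytoskeleton that give a cell mechanical strength. GFAP is the filament protein that defines astrocytes, and its production rises when astrocytes become reactive. Vimentin is present in immature glia, microglia, fibroblasts and endothelial cells and forms mixed filaments with GFAP. Nestin marks neural progenitors and needs a partner such as vimentin to assemble, and synemin likewise joins filaments built by other members and links them to membrane complexes. Mature OLs are known for lacking cytoplasmic intermediate filaments, while OPCs carry vimentin. CNTF acts through the JAK and STAT3 pathway, and STAT3 is a known activator of Gfap transcription.

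The miRNA that was raised in OLs or inhibited in OPCs is miR-145-5p, and its mature sequence is shown because the comparisons turn on it. The second sequence is miR-219a-5p, the rat miR-219 form that may have been used in the combined group, although the labels do not name the form. Sequences are from RefSeq and run 5′ to 3′, with the seed, bases 2 to 8, in capitals. The 2 miRNAs have different seeds.
rno-miR-145-5p: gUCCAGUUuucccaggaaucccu
rno-miR-219a-5p: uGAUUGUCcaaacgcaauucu

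The promoters of Gfap, Vim and Synm are shown because these genes had the largest fold changes of the 4 with anti-miR-145, with Gfap and Vim higher and Synm lower. Each stretch has 300 bases, 250 before and 50 after the RefSeq start in the GRCr8 build, written on the strand of the gene. Capitals mark matches on either strand to 4 motifs, namely the TATA box TATAAA, the CCAAT box CCAAT, the GC box GGGCGG and the palindrome TTCNNNGAA bound by STAT factors. Gfap lies at chr10:88361612-88361911 on the minus strand, Vim at chr17:81577011-81577310 on the plus strand and Synm at chr1:130773775-130774074 on the minus strand.
Gfap: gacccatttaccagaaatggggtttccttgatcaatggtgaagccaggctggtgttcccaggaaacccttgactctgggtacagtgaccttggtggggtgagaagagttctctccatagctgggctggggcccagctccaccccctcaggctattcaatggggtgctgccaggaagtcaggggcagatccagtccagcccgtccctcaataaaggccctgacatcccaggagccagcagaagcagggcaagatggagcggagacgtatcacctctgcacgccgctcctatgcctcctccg
Vim: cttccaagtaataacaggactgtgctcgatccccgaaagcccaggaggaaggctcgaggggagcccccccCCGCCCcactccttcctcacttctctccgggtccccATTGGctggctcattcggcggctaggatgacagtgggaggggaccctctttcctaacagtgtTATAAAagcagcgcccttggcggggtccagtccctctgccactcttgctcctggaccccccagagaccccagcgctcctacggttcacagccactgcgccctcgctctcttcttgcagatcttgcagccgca
Synm: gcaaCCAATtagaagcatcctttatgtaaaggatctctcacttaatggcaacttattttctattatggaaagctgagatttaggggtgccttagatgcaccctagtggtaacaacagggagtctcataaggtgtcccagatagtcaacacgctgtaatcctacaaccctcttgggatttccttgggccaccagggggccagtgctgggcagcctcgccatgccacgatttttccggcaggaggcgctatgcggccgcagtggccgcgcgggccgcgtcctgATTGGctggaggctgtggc
The Vim window held 1 TATA box that began 82 bases before the start, 1 CCAAT box and 1 GC box. The Synm window held 2 CCAAT boxes, and the Gfap window held no match to any of the 4 motifs. The Nes window, at chr2:175736338-175736637 on the plus strand, held 2 GC boxes. It was matched by symbol alone, since the deposited table pairs Nes with another Entrez ID than RefSeq does. No window held the STAT palindrome, but the windows reach only 250 bases before the start, and sites further away were not searched. Among 33469 rat promoters of this length, 14.2% held the TATA box, 37.5% the CCAAT box, 33.1% the GC box and 8.87% the STAT palindrome. These are matches of letters, and no site was tested.

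Estimated counts summed to between 33505706 and 42684206 per library. Levels are given as CPM, which are counts scaled to library size, after TMM normalization over the 10 libraries. CPM is not divided by transcript length, so levels are compared between groups and not between genes. The cell type labels were checked with defining markers. Mbp, a myelin protein gene, was at 6216 to 15531 CPM in OLs and 234 to 279 CPM in OPCs. Pdgfra, the OPC growth factor receptor, was at 148 to 265 CPM in OLs and 903 to 1544 CPM in OPCs. Aqp4, the astrocyte water channel, was at 168 to 450 CPM in OLs and 0.164 to 0.920 CPM in OPCs. Mag, Gja1 and S100b were also higher in OLs without overlap. Slc1a3 was at 305 to 867 CPM in OLs and 169 to 398 CPM in OPCs, with overlap. Sox9 was at 34.8 to 75.9 CPM in OLs and 13.9 to 83.4 CPM in OPCs, also with overlap. Mog, a myelin gene, was at 9.19 to 43.7 CPM in OLs and 9.73 to 11.8 CPM in OPCs, with overlap. Aldh1l1, an astrocyte marker, was low, at 1.32 to 2.25 CPM in OLs and 0.300 to 0.578 CPM in OPCs. The libraries labelled OL thus held high levels of several markers of both OLs and astrocytes, though not of all. The Gfap values of OLs below belong to such cultures. In bulk RNA, fewer cells of a type and less RNA per cell cannot be told apart.

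Gfap had the widest range of levels of the 4 genes across groups. In OLs given miR-ctl, Gfap was at 4795 and 4173 CPM (4484 ± 440, SD, n = 2). In OLs given miR-145, it was at 9676 and 6713 CPM (8194 ± 2095, SD, n = 2). In OLs given both mimics, it was at 7708 and 4865 CPM (6286 ± 2010, SD, n = 2). Both mimic groups lay above the control, and they overlapped each other. In OPCs given anti-miR-ctl, Gfap was at 8.13 and 7.80 CPM (7.96 ± 0.231, SD, n = 2), from 352 and 285 counts. In OPCs given anti-miR-145, it was at 41.3 and 51.8 CPM (46.5 ± 7.44, SD, n = 2). The OPC groups did not overlap each other, and every OL library was far above them. Gfap took 0.406% to 0.925% of all counts in OL libraries.

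Vim, the vimentin gene, was highest in OPCs given anti-miR-145. That group was at 6620 and 6028 CPM (6324 ± 419, SD, n = 2), and OPCs given anti-miR-ctl were at 2917 and 3068 CPM (2993 ± 106, SD, n = 2). The pairs of libraries were close within each OPC group and far apart between them. In OLs, Vim was at 1797 and 2005 CPM with miR-ctl (1901 ± 147, SD, n = 2). It was at 2439 and 3206 CPM with miR-145 (2823 ± 542, SD, n = 2). It was at 2490 and 2329 CPM with both mimics (2409 ± 114, SD, n = 2). In the order of levels, OPC anti-miR-ctl and OL miR-145 overlapped, as did both mimic groups, and OL miR-ctl was lowest with no overlap.

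Nes, the nestin gene, varied least. OPCs given anti-miR-145 were at 380 and 370 CPM (375 ± 7.25, SD, n = 2), above OPCs given anti-miR-ctl at 244 and 302 CPM (273 ± 40.7, SD, n = 2). OLs given miR-145 were at 186 and 325 CPM (255 ± 98.1, SD, n = 2). OLs given both mimics were at 211 and 264 CPM (237 ± 37.2, SD, n = 2), and OLs given miR-ctl at 175 and 212 CPM (193 ± 26.2, SD, n = 2). The 2 libraries of OL miR-145 were so far apart that they spanned both libraries of every other group except OL miR-ctl, with which they overlapped, and OPC anti-miR-145, which lay above them.

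Synm, the synemin gene, had the lowest counts. In OLs it was at 11.3 and 16.3 CPM with miR-ctl (13.8 ± 3.52, SD, n = 2). It was at 20.5 and 21.4 CPM with miR-145 (21.0 ± 0.640, SD, n = 2) and at 26.8 and 23.3 CPM with both mimics (25.0 ± 2.44, SD, n = 2). These 3 groups did not overlap. In OPCs it was at 1.57 and 2.35 CPM with anti-miR-ctl (1.96 ± 0.554, SD, n = 2) and at 0.704 and 0.552 CPM with anti-miR-145 (0.628 ± 0.107, SD, n = 2). The OPC values rest on 68 and 86 counts with anti-miR-ctl and on 28 and 24 counts with anti-miR-145.

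**Figure D1:**
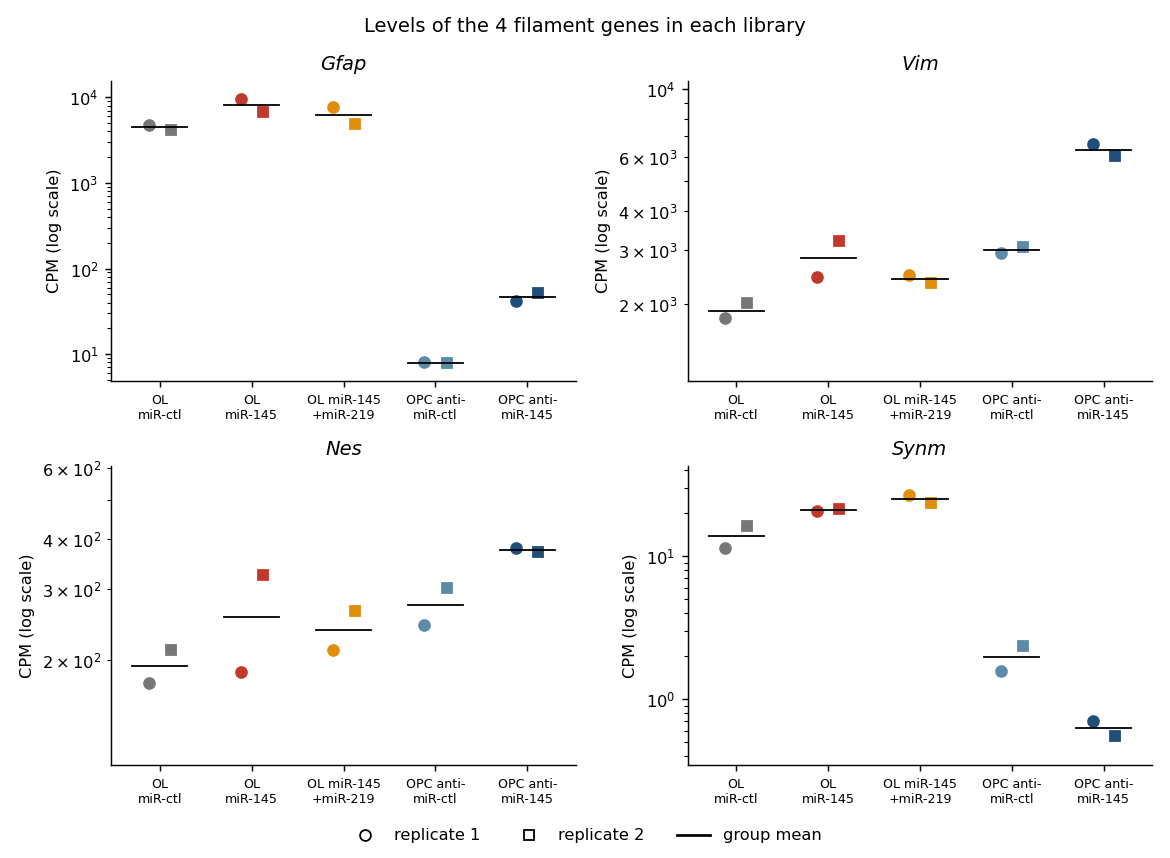
Level of each gene in each of the 10 libraries, in CPM on a log axis whose range differs between panels. Circles are replicate 1, squares replicate 2 and lines the mean of a group. In OPCs, Gfap, Vim and Nes lie higher and Synm lower with anti-miR-145, and Gfap is at 4173 to 9676 CPM in OLs against 7.80 to 51.8 CPM in OPCs.

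The comparison of OPC anti-miR-145 with OPC anti-miR-ctl asks what inhibition of miR-145 did to OPCs. All 4 genes passed the test, 3 upward and 1 downward. Gfap rose 5.78-fold and Vim rose 2.09-fold with anti-miR-145. Nes rose 1.36-fold, and Synm was 3.14-fold lower. Here and below, p-values come from quasi-likelihood tests in edgeR and were adjusted by the Benjamini-Hochberg method across every gene tested. Genes with an adjusted p under 0.05 passed, and log2 fold changes are given with their standard errors (SE).

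The log2 fold change of Gfap was 2.53 (SE 0.13, 95% interval 2.22 to 2.84, adjusted p = 6.2e-05 by edgeR). That of Vim was 1.07 (SE 0.09, 95% interval 0.84 to 1.29, adjusted p = 0.000312 by edgeR). That of Nes was 0.44 (SE 0.11, 95% interval 0.17 to 0.72, adjusted p = 0.0280 by edgeR). For Synm it was -1.65 (SE 0.32, 95% interval -2.41 to -0.89, adjusted p = 0.00985 by edgeR). Of the 15496 genes tested, 28.1% were called, 1874 higher and 2474 lower, and the libraries of the groups did not overlap for 68.0% of genes and for all 4 here. Nes did not pass when all 5 groups were fitted together (adjusted p = 0.246 by edgeR), nor without replicate 1 of anti-miR-ctl, where its log2 fold change was 0.28 (adjusted p = 0.307 by edgeR). Gfap, Vim and Synm passed without any single library.

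The marker lists were read in the same OPC libraries. The 14 astrocyte markers, which leave out the 4 filament genes, summed to 1423 to 1440 CPM with anti-miR-145 and 1740 to 1775 CPM with anti-miR-ctl. Of the 13 tested, 7 fell and 1 rose by edgeR, which called 28.1% of all genes. Their median log2 fold change was -0.29 beside 0.00 over all genes. Slc1a3, a glutamate transporter, fell from 398 and 376 to 169 and 205 CPM (adjusted p = 0.000492 by edgeR). S100b, a calcium-binding protein gene, fell from 129 and 137 to 74.4 and 74.4 CPM (adjusted p = 0.000438 by edgeR). Clu, the gene of the chaperone clusterin, was the marker that rose, from 31.9 and 31.7 to 64.4 and 61.2 CPM (adjusted p = 0.000334 by edgeR). Aqp4 was at 0.201 and 0.920 CPM with anti-miR-145 and 0.323 and 0.164 CPM with anti-miR-ctl, with overlap, and did not pass (adjusted p = 0.271 by edgeR). The part of astrocytes in the Gfap result was not tested.

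Other cell types could also carry Vim. The summed 12 microglia markers were at 924 to 1163 CPM with anti-miR-145 and 1033 to 1098 CPM with anti-miR-ctl, and these ranges overlapped. Singly, 6 of the 12 rose and 5 fell by edgeR, which called 28.1% of all genes in this comparison. Trem2, a microglial receptor gene, rose from 13.4 and 14.4 to 51.8 and 37.4 CPM (adjusted p = 0.000540 by edgeR), and Itgam, an integrin gene, fell from 104 and 89.6 to 33.5 and 31.9 CPM (adjusted p = 0.000112 by edgeR). The 8 fibroblast and mural cell markers summed to 365 to 435 CPM against 571 to 578 CPM, mostly from Cspg4, which OPCs also express and which was the marker that fell of 6 tested. Col1a1, a fibroblast collagen gene, was at 0.848 to 1.81 CPM over the 4 OPC libraries. The part of these cell types in the Vim result was not tested.

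The comparison between OL miR-145 and OL miR-ctl asks what excess miR-145 did to differentiating OLs. All 4 fold changes were above 1, at 1.83-fold for Gfap, 1.49-fold for Vim, 1.33-fold for Nes and 1.53-fold for Synm. None passed edgeR's test, in which 0% of 15461 genes were called. Without adjustment, 2067 genes, or 13.4%, had a p under 0.05, as did 3 of the 4 genes here. DESeq2 called 649 genes, or 4.20%, and of the 4 it called Gfap (adjusted p = 0.00478 by DESeq2). The groups did not overlap for 47.2% of all genes, nor for Gfap, Vim and Synm, so non-overlap was common in this comparison. The study, which used DESeq2, reports genes called in both directions for this comparison. With a term for the replicate number in edgeR, all 4 genes passed, among 2272 genes called. The labels do not say whether same-numbered libraries share a culture.

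For Gfap, the log2 fold change was 0.88 (SE 0.23, 95% interval 0.29 to 1.46, adjusted p = 0.222 by edgeR). For Vim, it was 0.58 (SE 0.19, 95% interval 0.10 to 1.05, adjusted p = 0.307 by edgeR). For Synm, it was 0.61 (SE 0.21, 95% interval 0.09 to 1.13, adjusted p = 0.320 by edgeR). For Nes, it was 0.41 (SE 0.28, 95% interval -0.29 to 1.11, adjusted p = 0.560 by edgeR). The Nes value rests on replicate 2 of miR-145, without which it was -0.051. Without any single library, the value of Gfap ran from 0.59 to 1.11, that of Vim from 0.36 to 0.76 and that of Synm from 0.37 to 0.89, all above 0 and none past the threshold.

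**Figure D2:**
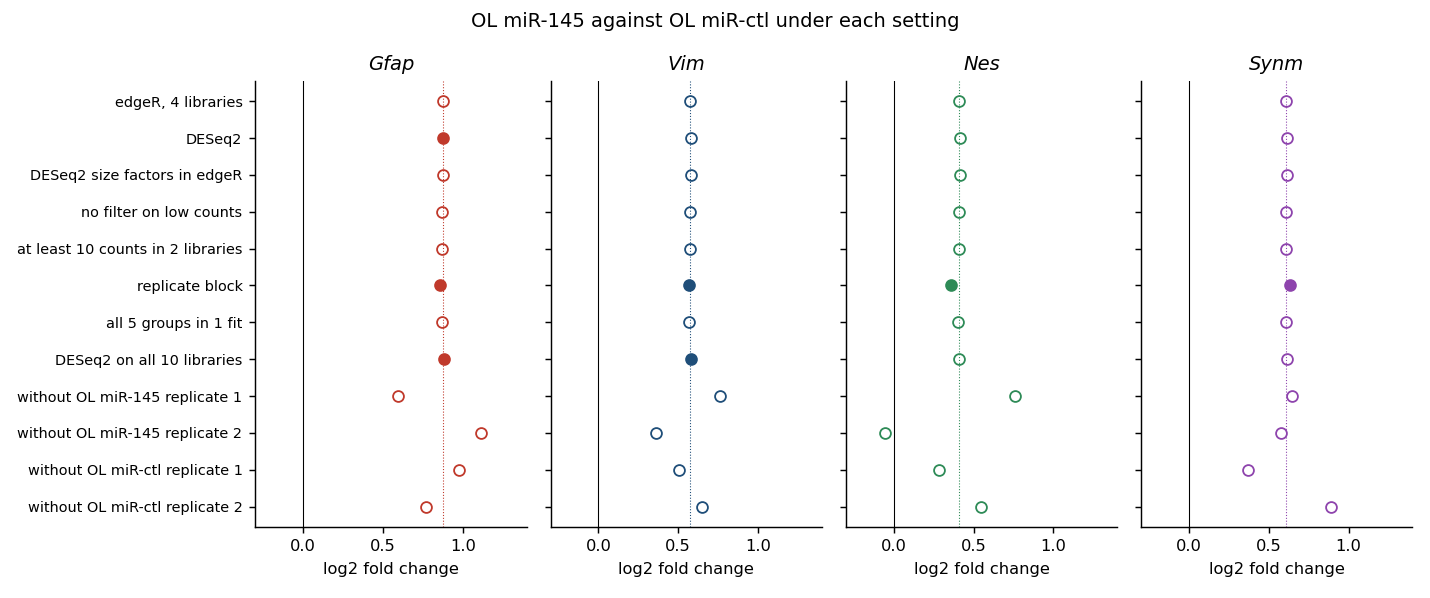
Log2 fold change of OL miR-145 against OL miR-ctl for each gene, under each way of fitting and with each library left out. Filled points had an adjusted p under 0.05, open points did not, and the dotted line is the value from edgeR on 4 libraries. Gfap keeps a value of 0.59 to 1.11 throughout, Nes drops to -0.051 without replicate 2 of miR-145, and all 4 points are filled with the replicate block.

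Astrocyte markers were also at higher levels in the OLs with miR-145. Their sum was 8967 to 10318 CPM against 5445 to 6516 CPM with miR-ctl, and all 14 had a fold change above 1. Their median log2 fold change was 0.88 beside -0.01 over all genes. Of the 14, 0 were called by edgeR, 10 had an unadjusted p under 0.05 and DESeq2 called 8. Over all genes, 13.4% had an unadjusted p under 0.05 and DESeq2 called 4.20%. Aqp4 was at 432 and 342 CPM against 168 and 186 CPM, a log2 fold change of 1.14 that did not pass (adjusted p = 0.158 by edgeR). Fabp7, a fatty acid binding protein gene of astrocytes and progenitors, was at 1433 and 1163 CPM against 661 and 607 CPM and did not pass (adjusted p = 0.158 by edgeR). The log2 ratio of Gfap counts to the summed astrocyte markers, a measure added after the data were seen, was -0.09 and -0.42 with miR-145 and -0.18 and -0.64 with miR-ctl. The groups overlapped, with a difference of 0.16 beside a pooled SD of 0.28. The part of astrocytes in the Gfap values was not tested.

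Replicate 2 of OL miR-145, on which the Nes value rests, stood apart in other markers too. Col3a1, a fibroblast collagen gene, was at 29.9 CPM in it, 3.05 CPM in replicate 1 and 0.126 and 0.797 CPM with miR-ctl. The 12 microglia markers summed to 1044 CPM in replicate 2 and 420 CPM in replicate 1. This direction was shared, with 612 CPM in replicate 2 and 414 CPM in replicate 1 of miR-ctl. With both mimics they were at 696 and 389 CPM. Nes was likewise higher in replicate 2 than in replicate 1 of each OL group. Against miR-ctl, all 12 microglia markers had a fold change above 1 with miR-145, at a median log2 fold change of 0.67 beside -0.01 over all genes. Of the 12, 0 were called by edgeR, 3 had an unadjusted p under 0.05 and DESeq2 called 1. Of the 7 fibroblast and mural cell markers tested, 6 had a fold change above 1, and their median log2 fold change was 2.08, with 0 called by edgeR, 7 at an unadjusted p under 0.05 and 2 called by DESeq2. Over all genes, 13.4% had an unadjusted p under 0.05 and DESeq2 called 4.20%. The part of microglia, fibroblasts and mural cells in the Nes and Vim values was not tested.

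The comparison of OL miR-145+miR-219 with OL miR-ctl asks what both mimics together did, and it shares its control libraries with the comparison before. The 4 genes had fold changes of 1.41 for Gfap, 1.27 for Vim, 1.23 for Nes and 1.83 for Synm. Both libraries lay above both controls for Gfap, Vim and Synm. For Nes, the CPM above overlapped by a narrow margin, at 211 against 212, and did not overlap when only these 4 libraries were scaled together. On that scale the groups did not overlap for 36.7% of 15436 genes. None of the 4 passed, in a test that called 0% of genes by edgeR, while 956 genes, or 6.19%, had an unadjusted p under 0.05 and DESeq2 called 106. Among the 4, Synm was the gene with an unadjusted p under 0.05, and DESeq2 called 0 of them.

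The log2 fold change of Synm was 0.87 (SE 0.21, 95% interval 0.33 to 1.41, adjusted p = 0.800 by edgeR). That of Gfap was 0.49 (SE 0.27, 95% interval -0.19 to 1.18, adjusted p = 0.815 by edgeR). Vim had a log2 fold change of 0.35 (95% interval -0.02 to 0.72, adjusted p = 0.811 by edgeR) and Nes of 0.30 (95% interval -0.12 to 0.73, adjusted p = 0.815 by edgeR). The astrocyte markers summed to 8223 to 9856 CPM with both mimics, above the 5445 to 6516 CPM of miR-ctl, and 13 of 14 had a fold change above 1. Of these 14, 0 were called by edgeR, 6 had an unadjusted p under 0.05 and DESeq2 called 2. Over all genes, 6.19% had an unadjusted p under 0.05 and DESeq2 called 0.687%.

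OLs given both mimics were then compared with OLs given miR-145 alone. Gfap was at 0.764-fold, Vim at 0.847-fold and Nes at 0.921-fold the level with miR-145 alone, and each overlapped between the groups. Synm was 1.19-fold higher without overlap, which was so in either direction for 24.4% of 15501 genes. No gene passed, with 0% called by edgeR, 228 genes or 1.47% at an unadjusted p under 0.05, and 9 called by DESeq2. Of the 4, 0 had an unadjusted p under 0.05 and DESeq2 called 0. The 95% interval of the log2 fold change ran from -1.18 to 0.40 for Gfap, from -0.73 to 0.25 for Vim, from -0.90 to 0.66 for Nes and from -0.09 to 0.58 for Synm, with the lowest bound for Gfap.

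The control groups of both stages, OL miR-ctl and OPC anti-miR-ctl, differ in stage, medium, oligonucleotide and time after transfection, and these cannot be told apart. Gfap was 558-fold higher and Synm 6.99-fold higher in OLs, while Vim was 1.59-fold lower and Nes 1.42-fold lower. All 4 passed, in a comparison in which 57.5% of 15721 genes were called and 81.7% did not overlap. The log2 fold change of Gfap was 9.12 (SE 0.15, 95% interval 8.75 to 9.49, adjusted p = 3.1e-05 by edgeR). That of Synm was 2.80 (SE 0.29, 95% interval 2.07 to 3.54, adjusted p = 0.00103 by edgeR). For Vim it was -0.67 (SE 0.10, 95% interval -0.92 to -0.42, adjusted p = 0.00335 by edgeR), and for Nes -0.51 (SE 0.15, 95% interval -0.89 to -0.13, adjusted p = 0.0326 by edgeR).

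Some of these calls rest on single libraries. Vim did not pass without replicate 2 of anti-miR-ctl (adjusted p = 0.0536 by edgeR). Nes did not pass without replicate 1 (adjusted p = 0.0512 by edgeR) or replicate 2 (adjusted p = 0.182 by edgeR) of that group, nor with all 5 groups in 1 fit (adjusted p = 0.121 by edgeR). Of the 14 astrocyte markers, 13 were called higher in OL miR-ctl and 0 lower by edgeR, with a median log2 fold change of 2.67 beside 0.01 over all genes. Aqp4 rose from 0.323 and 0.164 CPM to 168 and 186 CPM (adjusted p = 3.1e-05 by edgeR). Gja1, the gap junction gene of astrocytes, rose from 1.43 and 2.13 CPM to 159 and 161 CPM (adjusted p = 4.4e-05 by edgeR). OL and myelin markers rose as well, 8 of 10, with a median of 2.93. Over all genes, 57.5% were called in either direction. The part of astrocytes in the Gfap and Synm differences was not tested.

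**Figure D3:**
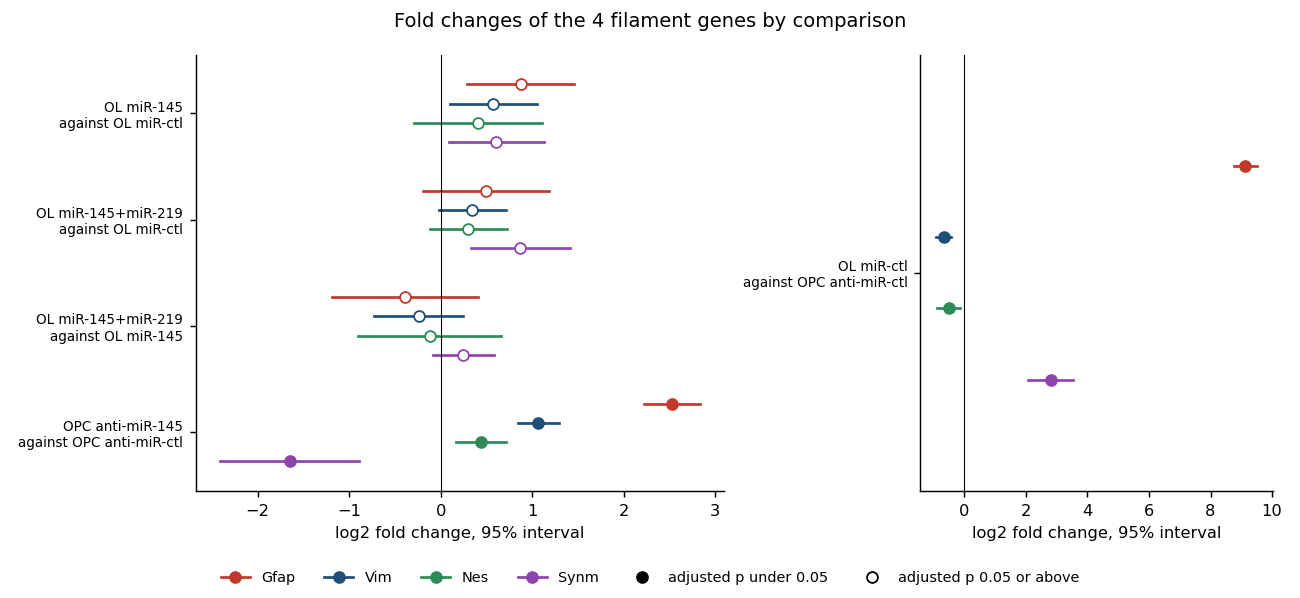
Log2 fold change of each gene in each comparison, with its 95% interval from edgeR's test. Filled points passed at an adjusted p under 0.05 and open points did not, and the 2 panels have different axes. All 4 genes passed with anti-miR-145 in OPCs and between the control groups of both stages, and none did between the OL groups.

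Counts of one gene relative to another within a library do not depend on library scaling. A ratio also reflects transcript length, so it is read here only as a difference between groups. The log2 ratio of Gfap to Vim was -7.33 and -6.86 in OPCs with anti-miR-145 and -8.49 and -8.62 with anti-miR-ctl, a difference of 1.46 beside a pooled SD of 0.24. The log2 ratio of Vim to Nes was 4.12 and 4.03 against 3.58 and 3.35, a difference of 0.61 beside a pooled SD of 0.13. The log2 ratio of Gfap to Synm was 5.87 and 6.55 against 2.37 and 1.73, a difference of 4.16 beside a pooled SD of 0.47. The 4 genes therefore changed unequally in OPCs, with Gfap rising more than Vim, Vim more than Nes, and Synm moving the other way.

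In OLs, no ratio among the 4 genes separated miR-145 from miR-ctl. The log2 ratio of Gfap to Vim was 1.99 and 1.07 with miR-145 and 1.42 and 1.06 with miR-ctl, and the libraries overlapped. With both mimics, the log2 ratio of Vim to Synm was 6.54 and 6.64, below 7.31 and 6.94 with miR-ctl and 6.89 and 7.23 with miR-145. The log2 ratio of Nes to Synm was likewise lower with both mimics than with miR-ctl, by 0.59 beside a pooled SD of 0.29. These ratios are descriptions, since no test was run on them.

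**Figure D4:**
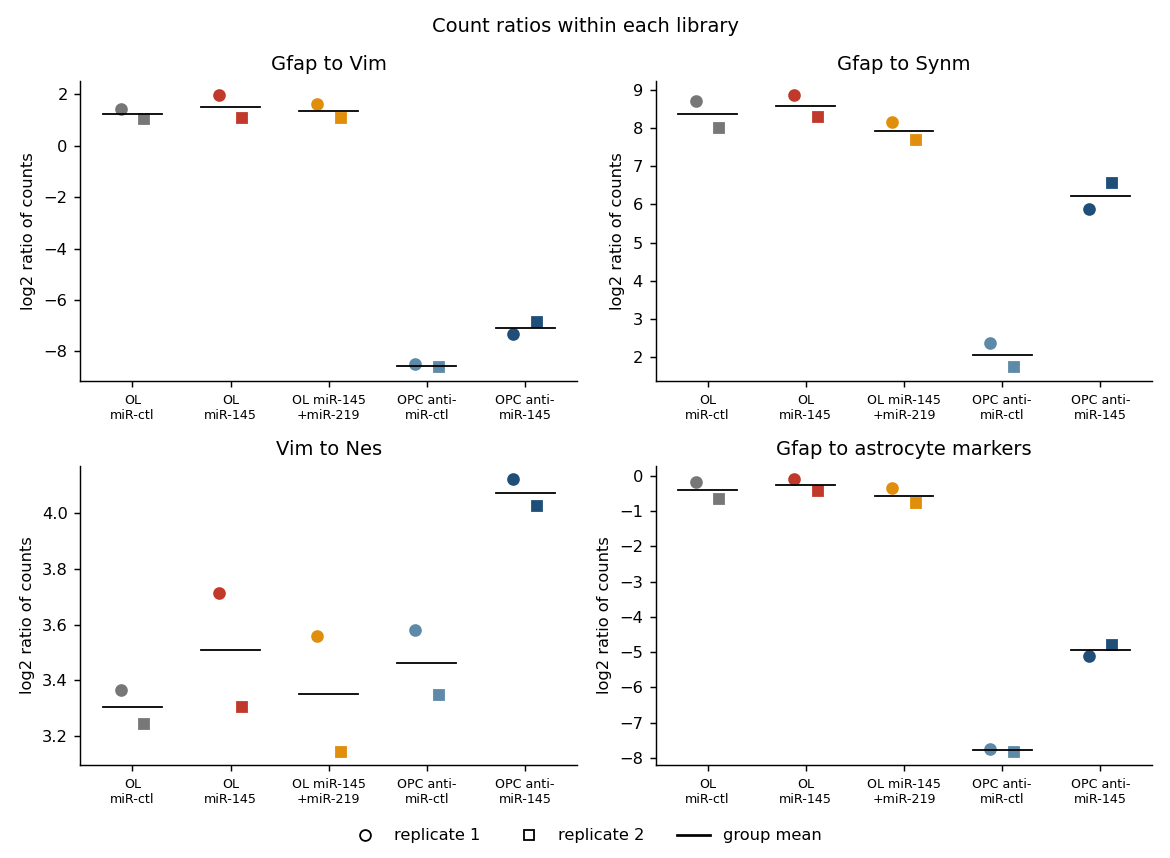
Log2 ratio of counts within each library for 3 pairs of genes and for Gfap to the summed astrocyte markers, with a different axis range in each panel. Circles are replicate 1, squares replicate 2 and lines the group means. With anti-miR-145 all 4 ratios are higher than with anti-miR-ctl, while the ratios of OL miR-145 and OL miR-ctl overlap.

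Among 12 other intermediate filament genes found, 3 rose and 2 fell in OPCs with anti-miR-145, and the median log2 fold change was -0.08 beside 0.00 over all genes. Counts of called genes here and in the lists below stand beside shares of 28.1% of all genes called with anti-miR-145 and 57.5% between the control groups. In OLs, the share of all genes with an unadjusted p under 0.05 was 13.4% for miR-145 against miR-ctl. It was 6.19% for both mimics against miR-ctl and 1.47% against miR-145 alone. DESeq2 called 4.20%, 0.687% and 0.0581% of all genes in the same order. Nefl and Nefm, which encode neurofilament subunits, rose from 3.09 and 3.50 to 14.9 and 11.2 CPM (adjusted p = 0.000410 by edgeR) and from 7.32 and 7.58 to 20.8 and 17.2 CPM (adjusted p = 0.000532 by edgeR). The nuclear lamin gene Lmna rose from 99.1 and 106 to 152 and 122 CPM (adjusted p = 0.0460 by edgeR). Lmnb1, a lamin gene, fell from 183 and 197 to 75.0 and 75.6 CPM (adjusted p = 9.4e-05 by edgeR), and Lmnb2 fell from 51.6 and 50.2 to 40.6 and 41.4 CPM (adjusted p = 0.0256 by edgeR).

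In the OL comparisons, 0 of the 12 were called by edgeR or DESeq2 in any of the 3. An unadjusted p under 0.05 was found for 1 gene with miR-145 against miR-ctl and 0 in the other 2, and the medians were -0.17 for miR-145 against miR-ctl, -0.09 for both mimics against miR-ctl and 0.10 for both mimics against miR-145 alone. The smallest p with miR-145 was that of Krt8, a keratin gene, at 0.230 and 0.657 CPM against 0.0753 and 0.0613 CPM, which did not pass (adjusted p = 0.264 by edgeR). Between the control groups, 1 gene rose in OLs and 5 fell, with a median of -0.75. Lmnb1 fell from 183 and 197 to 21.7 and 17.0 CPM (adjusted p = 7.7e-05 by edgeR) and Prph, the peripherin gene, from 5.29 and 4.68 to 0.226 and 0.184 CPM (adjusted p = 0.000177 by edgeR), whereas Lmna rose from 99.1 and 106 to 131 and 166 CPM (adjusted p = 0.0195 by edgeR).

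Linkers, chaperones and modifying enzymes of intermediate filaments formed a second list, of which 23 genes were found. In OPCs with anti-miR-145, 2 of the 22 tested rose and 6 fell, with a median of -0.01. Aurkb, a mitotic kinase gene whose product phosphorylates vimentin and GFAP, fell from 96.5 and 100 to 34.0 and 36.5 CPM (adjusted p = 7.5e-05 by edgeR). Padi2, which encodes an enzyme that citrullinates GFAP and vimentin, fell from 84.2 and 79.7 to 28.1 and 32.3 CPM (adjusted p = 0.000115 by edgeR). Dmd, the dystrophin gene, fell from 2.98 and 3.20 to 1.11 and 1.49 CPM (adjusted p = 0.00742 by edgeR). Cdk5, a kinase gene, rose from 42.6 and 45.5 to 61.3 and 53.8 CPM (adjusted p = 0.0355 by edgeR), and Hspb1, a small heat shock protein gene, rose from 0.254 and 0.410 to 0.980 and 0.828 CPM (adjusted p = 0.0304 by edgeR).

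Between the control groups, 12 of the 23 rose in OLs and 4 fell, with a median of 0.57. Plec, the gene of plectin, which cross-links filaments, rose from 12.9 and 12.5 to 108 and 120 CPM (adjusted p = 4.5e-05 by edgeR). Hspb1 rose from 0.254 and 0.410 to 40.6 and 53.1 CPM (adjusted p = 6.1e-05 by edgeR), and Dmd from 2.98 and 3.20 to 26.5 and 25.1 CPM (adjusted p = 6.6e-05 by edgeR). Aurkb fell from 96.5 and 100 to 15.7 and 13.1 CPM (adjusted p = 6.9e-05 by edgeR).

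With miR-145 in OLs, 0 of the 23 were called by edgeR, 6 had an unadjusted p under 0.05 and DESeq2 called 3, with a median of 0.06. Dmd was at 68.5 and 56.6 CPM against 26.5 and 25.1 CPM and did not pass (adjusted p = 0.158 by edgeR). Aurkb was at 30.9 and 46.5 CPM against 15.7 and 13.1 CPM and did not pass (adjusted p = 0.158 by edgeR). Both genes had fold changes above 1 with the mimic in OLs and fell with the inhibitor in OPCs. With both mimics against miR-ctl, 0 were called by edgeR, 6 had an unadjusted p under 0.05 and DESeq2 called 1, with a median of 0.10. Against miR-145 alone, 0 of 24 gene IDs were called by edgeR and DESeq2, and 1 had an unadjusted p under 0.05, with a median of 0.01.

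The third list held 24 receptors and factors of Gfap transcription in 25 gene IDs. In OPCs with anti-miR-145, where 28.1% of all genes were called, 7 rose and 5 fell, with a median of -0.04. Sox9, a transcription factor gene of astrocytes and glial progenitors, rose from 14.7 and 13.9 to 76.2 and 83.4 CPM, a log2 fold change of 2.46 (SE 0.09, adjusted p = 2.7e-05 by edgeR). Stat3, the factor on which CNTF signals converge, rose from 376 and 368 to 580 and 626 CPM (adjusted p = 0.00115 by edgeR). Socs3, a STAT3 target and feedback inhibitor, rose from 9.88 and 10.1 to 25.5 and 25.4 CPM (adjusted p = 0.000154 by edgeR). Among the genes that fell, Dnmt1, the maintenance DNA methyltransferase, went from 327 and 338 to 201 and 210 CPM (adjusted p = 0.000843 by edgeR). Hes5, a Notch target, fell from 1.45 and 1.37 to 0.352 and 0.483 CPM (adjusted p = 0.00678 by edgeR). One of the 2 IDs of Smad9 fell too, from 19.0 and 19.5 to 9.68 and 12.2 CPM (adjusted p = 0.00355 by edgeR), and is uncertain since counting may split its reads.

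Between the control groups, 9 of the 25 IDs rose in OLs and 3 fell, with a median of 0.02. Il6st, the shared receptor subunit of the CNTF family, rose from 63.2 and 62.3 to 232 and 302 CPM (adjusted p = 0.000278 by edgeR). Osmr, a receptor gene of the same family, rose from 2.03 and 1.94 to 13.1 and 10.5 CPM (adjusted p = 0.000304 by edgeR). Bmpr1b, a receptor gene of bone morphogenetic proteins, rose from 0.231 and 0.137 to 7.00 and 8.25 CPM (adjusted p = 0.000155 by edgeR). The 3 that fell were Dnmt1, from 327 and 338 to 90.8 and 80.7 CPM (adjusted p = 9.5e-05 by edgeR), Nfib, from 66.8 and 61.5 to 29.5 and 20.1 CPM (adjusted p = 0.00276 by edgeR), and Olig2, from 491 and 488 to 411 and 351 CPM (adjusted p = 0.0262 by edgeR).

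With miR-145 in OLs, 0 of the 25 were called by edgeR, 6 had an unadjusted p under 0.05 and DESeq2 called 2, with a median of 0.11. Sox9 was at 75.9 and 67.1 CPM against 39.1 and 34.8 CPM, a log2 fold change of 0.96 that did not pass (adjusted p = 0.158 by edgeR). Bmpr1b was at 20.7 and 14.8 CPM against 7.00 and 8.25 CPM and did not pass (adjusted p = 0.164 by edgeR). With both mimics, 0 were called by edgeR or DESeq2 against either group, with 2 at an unadjusted p under 0.05 against miR-ctl and 0 against miR-145, and medians of -0.02 and -0.06. Sox9, like Gfap, was at a higher level with the mimic in OLs and rose with the inhibitor in OPCs.

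**Figure D5:**
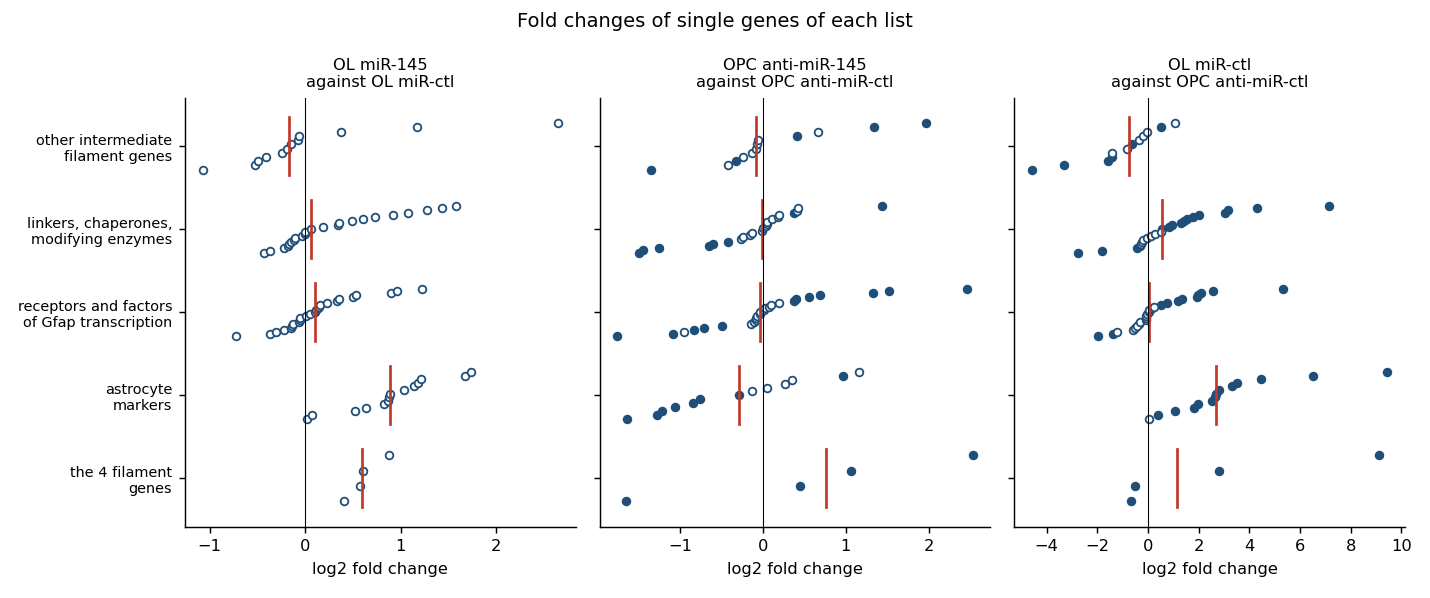
Log2 fold change of each gene of 4 lists and of the 4 filament genes in 3 comparisons, with a different axis in each panel. Filled points passed at an adjusted p under 0.05, open points did not, and red lines are medians. In OPCs with anti-miR-145, the median of the astrocyte markers is -0.29 while Gfap, Vim and Nes lie above 0.

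The remaining marker lists are given as summed levels over OL and OPC libraries. OPC markers summed to 3157 to 3926 CPM in OLs and 6143 to 8071 CPM in OPCs, and 3 rose and 2 fell of 8 with anti-miR-145. Neural progenitor markers summed to 1189 to 2048 CPM and 926 to 993 CPM, and 2 rose and 3 fell of 8 with anti-miR-145. Neuron markers summed to 494 to 686 CPM and 1414 to 1597 CPM, and 2 rose of 9. Endothelial markers summed to 10.2 to 27.7 CPM and 3.07 to 12.3 CPM, and 1 fell of 5. OL and myelin markers summed to 10898 to 24076 CPM and 1026 to 1205 CPM, and 2 rose and 2 fell of 10.

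The genes whose pattern was most like that of each filament gene were sought among those with a symbol and a mean of at least 5 CPM, by Pearson correlation of log2(CPM + 1) over the 10 libraries. These libraries fall into 2 stages that stand apart, so such values are mostly set by the stages. The value over the 6 OL libraries is given for the most similar gene of each and for Slc14a1. Among the genes not given with it, the lowest was 0.684 for Tspan14. Gfap was most like Wls (r = 0.997 over 10 libraries, 0.931 over 6), Pfkfb3, Slc14a1, Thrb and Baalc. Slc14a1, a urea transporter gene, was at 166 to 428 CPM in OLs and 0.415 to 2.69 CPM in OPCs, with an r of 0.960 over the 6 OL libraries. Vim was most like Gss (r = 0.975 and 0.841), Ltbp4, S100a10, Tspan14 and Prelid1. The 5 genes most like Nes included Ctss (r = 0.956 and 0.980), Rnf150, Stac2 and Ddx41. Ctss, the cathepsin S gene of microglia and macrophages, was at 48.5 to 140 CPM in OLs and 88.1 to 170 CPM in OPCs. Synm was most like Prr5l (r = 0.993 and 0.892), Carmil1, Scrn1, Cd99l2 and Entpd5. Within the 6 OL libraries, Vim and Nes correlated at r = 0.78 and Vim and Synm at 0.72, whereas Gfap and Nes were at -0.05. These are descriptions over libraries that share their control group and depth range, with no test.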

How the data were processed

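RNA of 10 libraries was read on a NextSeq 500 after poly(A) selection with the TruSeq Stranded mRNA kit. Reads were quantified by the authors against GENCODE rat transcripts (Salmon 0.12.0, tximport), and the estimated counts they deposited are summed per gene without normalization. A methods paragraph of the study names lentivirus, while the labels and results name mimics. A second table deposited by the authors holds their OL miR-145 comparison with a mean signal, a log2 fold change, a score and p-values, of which only the pairing of gene IDs with symbols was used (14561 of 16129 IDs had a symbol).

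Counts were rounded, and a gene was tested where 2 or more of a comparison's 4 libraries had 5 or more counts, using edgeR 4.0.16 (R 4.3.3, TMM, glmQLFit and glmQLFTest). The SE is the log2 fold change divided by the square root of F. Alternatives used DESeq2 1.42.0, other filters, a joint fit, a term for the replicate number and each library left out. The functions were also run on simulated data, and the outcome of that run is not reported here. Tables and figures used Python 3.11.15, numpy 2.4.6, pandas 2.3.3 and matplotlib 3.10.9. The lowest library total was 33505706 counts, so 2 libraries per group, not depth, limit precision except for genes of low counts such as Synm in OPCs. Groups came from sample titles and descriptions. The 4 genes and all lists, for the other filament genes, linkers, regulators of Gfap and the cell types, were chosen with earlier results of these data known. From each list, the called genes of smallest p were named, up to 3 in each direction, or up to 2 of smallest p where none was called, besides defining markers, and Col1a1 was named after its values were seen. List symbols not found were left out. Some genes that these rules name are not reported here. Protein sequences and target sites of miR-145-5p were not analysed here.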

Additional observations from a re-analysis of the deposited data

How the results depend on the processing

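With 2 libraries per group, 1 library can decide a value, and the depth limits Synm in OPCs. Of 220 alternative values of the 4 genes, 200 kept both direction and side of the threshold, 9 newly passed, 8 no longer passed and 3 turned, and the causes were not tested. For OL miR-145 against OL miR-ctl, Gfap passed with DESeq2 (0.88), and Gfap and Vim passed with DESeq2 on all 10 libraries, added after the data were seen (0.88 and 0.58). There, the number of the 4 that passed went from 0 to 1 and 2, and genes called from 0 to 649 with DESeq2, 1126 with DESeq2 on 10 libraries and 32 with all groups in 1 fit. For both mimics against miR-ctl, DESeq2 on 10 libraries called Synm (0.86), 1 of the 4, and genes called were 106 with DESeq2, 201 with DESeq2 on 10 libraries and 1 without the filter. Against miR-145 alone, DESeq2 called 9 genes and 7 on 10 libraries. With anti-miR-145, Nes no longer passed with all groups in 1 fit (0.46, 2553 genes called) or with DESeq2 on 10 libraries (0.43). Between control groups it no longer passed there either (-0.50 and -0.52).

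Same-numbered replicates were checked for pairing, and the labels do not say whether they share a culture. In each OL group, replicate 2 summed above replicate 1 for OL and myelin markers and for microglia markers. OL and myelin markers were at 24076 against 13372 CPM with both mimics, 17131 against 10898 CPM with miR-145 and 21399 against 12064 CPM with miR-ctl. Astrocyte markers did not keep the same direction across the OL groups. The correlation of the deviations of same-numbered replicates was 0.24, 0.24, 0.42, -0.07 and 0.03 in the 5 comparisons. With a replicate block, all 4 genes passed for OL miR-145 (Gfap 0.86, Vim 0.56, Nes 0.36, Synm 0.63), among 2272 genes called. With the block 132 genes were called for both mimics against miR-ctl and 184 against miR-145 alone, where 1 of the 4, Gfap, passed (-0.41).

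With each library left out, Nes ran from -0.051 to 0.76 for OL miR-145 against OL miR-ctl, turning without replicate 2 of miR-145 (-0.051). For both mimics against miR-145 it ran from -0.47 to 0.35, turning without replicate 1 of both mimics (0.04) or replicate 2 of miR-145 (0.35). With anti-miR-145 Nes ran from 0.28 to 0.58, and 3 to 4 of the 4 genes and 2348 (without replicate 1 of anti-miR-ctl) to 7133 genes (without replicate 2 of anti-miR-145) were called, with 2407 without replicate 2 of anti-miR-ctl. Between control groups Vim ran from -0.74 to -0.58 and Nes from -0.67 to -0.36, and 2 to 4 of the 4 genes and 4780 to 10306 genes were called, the lowest without replicate 2 of anti-miR-ctl and 4842 without its replicate 1. By Spearman correlation, 2 of the 5 genes most like Nes were shared and 0 for the others, and 3 of 5 for Synm with a pseudocount of 0.1.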
